A study of Mus musculus with 4 samples.

Results

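The axon guidance ligands and receptors of the developing cerebellum were followed across cell types, stages of the granule neuron lineage and libraries. The genes were Dcc and every listed symbol that starts with Sema, Plxn, Robo1 to Robo4, Slit1 to Slit3, Unc5, Ntn, Nrp1, Nrp2, Epha, Ephb, Efna or Efnb, with at least 50 UMIs (unique molecular identifiers, each standing for a captured RNA molecule) over the 4 libraries. Of 32285 genes listed, 76 symbols matched and 74 had enough UMIs. Robo3 with 27 UMIs and Plxna4os2 with 12 fell short, and Plxna4os3 with 94, Ntn5 with 107 and Efna3 with 191 were the nearest above. The 74 comprised 20 semaphorins, 9 plexins, 2 neuropilins, 6 netrins and netrin-G genes, 5 netrin receptors, 3 slits, 3 Robo receptors, 9 EphA and 5 EphB receptors, and 5 ephrin A and 3 ephrin B genes. The remaining 4 matched by the start of their symbol only: Unc50, Unc5cl, Plxna4os1 and Plxna4os3 are not guidance ligands or receptors.

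The libraries came from whole mouse cerebella with the meninges removed, dissociated with trypsin and profiled on the 10x Chromium droplet platform. There was 1 library each of WT and of Eftud2 cKO mice at postnatal day 10 and at postnatal day 14, written below as P14 WT, P14 cKO, P10 cKO and P10 WT. Eftud2 encodes a GTPase of the spliceosome, and the series title places its loss in Purkinje cells. The labels give no Cre line, no deleted exon, no sex and no number of animals per library.

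Axon guidance molecules tell a growing axon or a migrating neuron where to go. Netrins attract through Dcc and repel through Unc5 receptors, slits repel through Robo receptors, semaphorins signal through plexins with or without a neuropilin as co-receptor, and ephrins and Eph receptors signal in both directions where cells touch. In the postnatal cerebellum, granule cell progenitors divide in the external granular layer, become postmitotic, send out parallel fibres and then migrate inward along Bergmann glia to the internal granular layer, and Sema6a and its receptor Plxna2 are known for their part in that migration.

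The promoters of 3 genes that move along the granule lineage are shown as the sequence before their RefSeq start, since the stages in which their RNA is found are the main pattern below. Slit2 and Ephb2 are lower in mature granule neurons than in newborn ones, and Ephb1 is higher. Each run is the 250 bases upstream of the start on GRCm38.p6, 5′ to 3′ on the gene's own strand, and capitals mark matches to GGGCGG (the GC box) or TATAAA (the TATA box) on either strand. The windows are chr5:47982905-47983154 on the plus strand for Slit2, chr4:136836013-136836262 on the minus strand for Ephb2 and chr9:102354694-102354943 on the minus strand for Ephb1.
Slit2: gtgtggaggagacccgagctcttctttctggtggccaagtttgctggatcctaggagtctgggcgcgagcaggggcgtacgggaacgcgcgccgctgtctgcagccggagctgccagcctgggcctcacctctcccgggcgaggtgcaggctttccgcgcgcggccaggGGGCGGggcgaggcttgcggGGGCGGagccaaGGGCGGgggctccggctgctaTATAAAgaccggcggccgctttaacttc
Ephb2: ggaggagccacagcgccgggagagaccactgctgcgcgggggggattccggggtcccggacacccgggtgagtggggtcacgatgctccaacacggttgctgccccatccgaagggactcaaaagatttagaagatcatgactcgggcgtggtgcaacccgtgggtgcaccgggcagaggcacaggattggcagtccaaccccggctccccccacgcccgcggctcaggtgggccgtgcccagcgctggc
Ephb1: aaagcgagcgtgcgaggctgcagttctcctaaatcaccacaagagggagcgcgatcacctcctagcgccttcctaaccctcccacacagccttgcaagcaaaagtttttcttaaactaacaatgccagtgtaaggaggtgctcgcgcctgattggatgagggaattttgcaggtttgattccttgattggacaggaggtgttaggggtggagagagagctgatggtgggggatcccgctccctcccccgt
The Slit2 window holds 3 GC boxes and 1 TATA box, and the Ephb2 and Ephb1 windows neither motif. Windows were found for 62 of the 74 genes, 78 windows in all. A GC box lay in 55 of these (70.5%), against 32.7% of all 32851 RefSeq windows, and TATAAA in 2 (2.56%), those of Slit2 and Efnb2, against 12.4%. The median GC content was 64.4% in the guidance windows and 52.4% in all windows, and the GC box is itself made of G and C. The E-box CAGCTG was in 12 windows (15.4%, against 13% of all) and the E-box CAGATG in 6 (7.69%, against 14.4%). These are matches of letters and not known binding sites. In the GENCODE annotation of GRCm38, Slit2 (ENSMUSG00000031558) lies at chr5:47983138-48307733, Ephb2 (ENSMUSG00000028664) at chr4:136647539-136835988 and Ephb1 (ENSMUSG00000032537) at chr9:101922128-102354693, so the last 17 bases of the Slit2 window lie inside the gene as GENCODE has it.

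After filtering, P14 WT kept 14828 cells, P14 cKO 6127, P10 cKO 6375 and P10 WT 13684, at medians of 7691, 12185, 10853 and 8314 UMIs per cell, and pairs of libraries shared 12 to 83 barcodes. Classes were set by gates on marker genes, none of which is a guidance gene counted here, and a class name below means the cells that passed its gate. No cell of any library passed the gate for Purkinje cells, so nothing below describes them. In the same order, Eftud2 was at 48.4, 45.0, 55.6 and 52.9 CPM (UMIs scaled to 1000000 UMIs of the cells summed) over all cells kept, and at 73.6, 73.9, 73.99 and 71.0 CPM in cycling granule progenitors. The deleted exons are not given, so UMIs from the 3′ end may lie outside them and do not check the genotype. Xist, the RNA of the inactive X chromosome, was at 1003, 877, 0.407 and 1223 CPM, so the P10 cKO library stands apart from the other 3. P10 WT held few UMIs of genes with long introns, as described at the end, and the levels below rest on P14 WT, P14 cKO and P10 cKO, always given in this order. With 1 library per group there is no replicate check and no test, and all intervals are exact 95% intervals for counting error only. A class was used where it had at least 20 cells in a library. "Past 2-fold" is a rule of size and not of significance. Fewer cells of a type and less RNA per cell can be told apart here only within the captured cells.

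The guidance genes were spread over all cell types of the tissue, and most kept the same leading cell type in each of the 3 libraries. Of the 74 genes, 55 had their highest level in the same of 9 classes in P14 WT, P14 cKO and P10 cKO, and for 33 the interval lay above that of the next class in all 3. No share of all genes is given beside these counts, so they do not set the guidance genes apart from other genes. Granule lineage cells led for 10 genes, oligodendrocytes for 9, and GABAergic interneurons, endothelial cells and fibroblasts for 7 each. Oligodendrocyte precursors, microglia and border macrophages led for 4 each and astroglia for 3. For the other 19 the leading class differed between libraries, among them low genes such as Efna3, Ntn5 and Unc5a, and also Dcc, Robo1, Plxna2 and Plxnc1, which are high in more than 1 class.

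Counted against all other gated cells of the library, and asking for at least 2-fold with the interval above 0 in each library, 14 guidance genes stood out in oligodendrocyte precursors (7.14% of all genes did), 14 in endothelial cells (10.1%) and 13 in the granule lineage (9.49%). Fibroblasts had 10 (9.99%), oligodendrocytes 10 (8.4%), GABAergic interneurons 9 (4.33%), astroglia 8 (10.4%), microglia 7 (11.7%) and border macrophages 6 (9.15%). Mural cells, with 2 libraries, had 4 (6.4%). Classes with P14 WT only were ependymal cells with 8 (17.9%), leukocytes with 4 (9.2%) and choroid plexus cells with 3 (9.37%). The class shares of all genes differ widely, so these counts describe where the genes are found and do not mark a class as rich or poor in them. The colour map of levels by class in P14 WT shows the whole set.

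**Figure D1:**
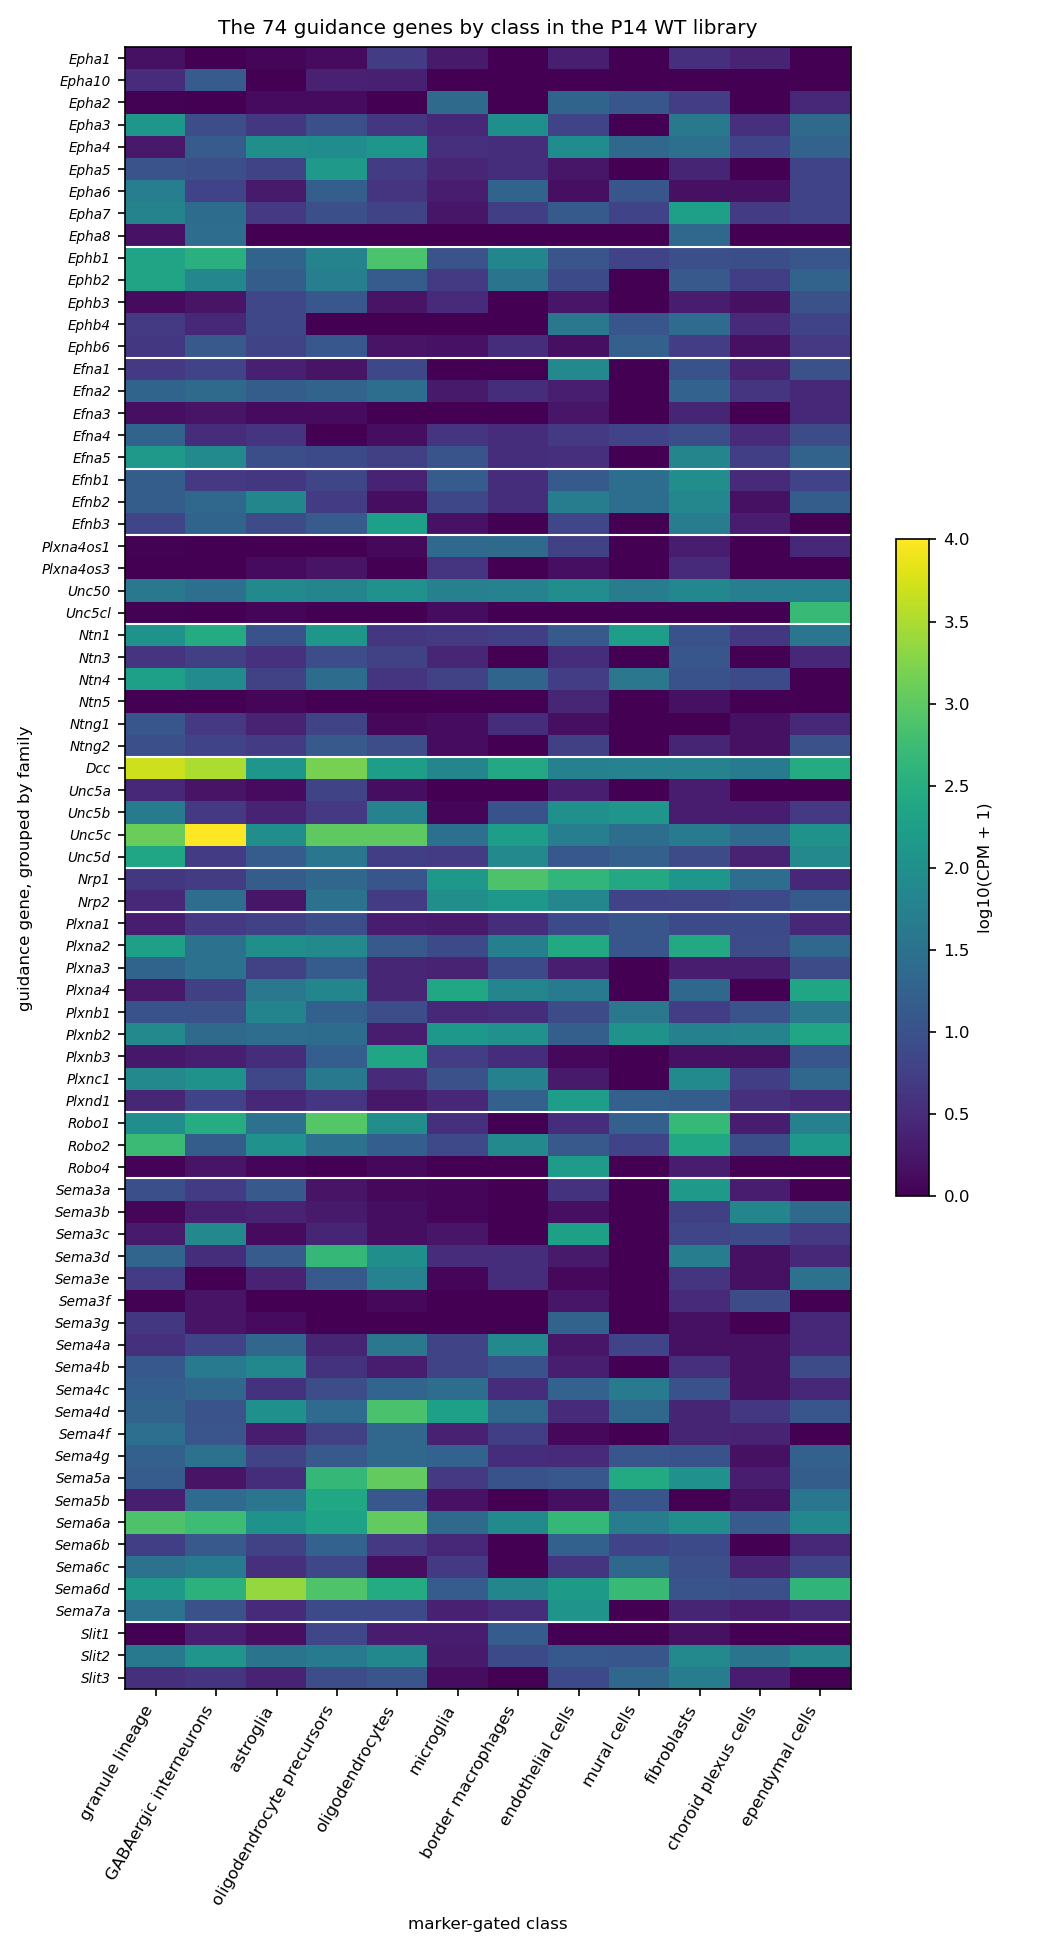
Level of each of the 74 guidance genes (rows, grouped by family, white lines between families) in 12 marker-gated classes (columns) of the P14 WT library, as log10(CPM + 1) in colour from 0 to 4. Colours are to be read along a row: Robo4 is brightest in endothelial cells, Unc5cl in ependymal cells, and Unc5c peaks in GABAergic interneurons at 10105 CPM.

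Of the netrin receptors, Unc5c led in GABAergic interneurons and Unc5d in the granule lineage, and Dcc in 1 or the other by library. Unc5c, a repulsive netrin receptor (ENSMUSG00000059921), stood at 10105, 9611 and 9197 CPM in GABAergic interneurons, 3.32, 2.92 and 3.01 above other gated cells as a log2 ratio, and at 1250.5, 1611 and 1290.0 CPM in the granule lineage. Every one of the 261, 320 and 324 interneurons had an Unc5c UMI, against 14.5%, 28.5% and 46.4% of microglia, at median depths of 6345, 12556 and 9138 UMIs for interneurons and 8426, 16380 and 11107.5 for microglia. Dcc (ENSMUSG00000060534), the attractive netrin receptor, was at 4981, 4086 and 4753 CPM in the granule lineage and at 3163, 5176 and 7276 CPM in GABAergic interneurons, so that the leading class differed between P14 WT and both cKO libraries. Ntn1 (ENSMUSG00000020902), the secreted netrin-1, was highest in GABAergic interneurons at 285, 243 and 373 CPM. Ntn4, a netrin of basement membranes, was highest in the granule lineage at 179.5, 198 and 259 CPM, 3.95, 3.82 and 3.49 above other cells (log2). Unc5d led in the granule lineage too, at 225, 296 and 273 CPM. Unc5b was at 102, 111 and 104 CPM in endothelial cells and at 58.1, 109 and 114 CPM in oligodendrocytes. In the mural cells of P14 WT and P14 cKO it was at 122 and 125 CPM. Unc5cl, which shares its name with the family but not its role, was at 515 CPM in the 41 ependymal cells of P14 WT and at 0.372 CPM in microglia, the highest of the 9 main classes.

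The slits and their receptors divided by cell type. Slit2 was highest in GABAergic interneurons at 119, 92.1 and 106 CPM, apart from fibroblasts by its interval in P14 WT only. Slit3 was highest in fibroblasts at 48.8, 93.8 and 60.6 CPM, 4.02, 3.51 and 2.53 above other cells (log2). Slit1 was highest in border macrophages at 13.7, 16.9 and 25.0 CPM, with intervals that overlapped those of the next class in both P14 libraries. Robo4, the Robo receptor of vessels, was at 156, 134 and 138 CPM in endothelial cells, with a UMI in 199 of 265, 63 of 74 and 70 of 87 cells, and had 0 UMIs in the 643, 362 and 168 microglia. Its ratio over all other gated cells was the largest of the endothelial genes, at 10.25, 11.05 and 9.80 (log2). Robo2 led in the granule lineage at 537, 761 and 513 CPM. Robo1 led in oligodendrocyte precursors in P14 WT and P14 cKO at 877 and 898 CPM, and in fibroblasts in P10 cKO at 688 CPM.

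Sema6d, a transmembrane semaphorin, was at 2299.6 CPM in P14 WT astroglia, at 2751 in P14 cKO and at 2067 in P10 cKO, 3.84, 3.83 and 3.49 above other cells (log2). Sema5b and Sema3d led in oligodendrocyte precursors, Sema5b at 243, 232 and 297 CPM and Sema3d at 456, 479 and 326 CPM. Sema5a led in oligodendrocytes at 1107, 726 and 951 CPM, where Sema4d stood at 713, 758 and 848 CPM and Sema6a at 1093, 1437 and 1456 CPM. Sema3c, a secreted semaphorin, was highest in endothelial cells at 185, 179 and 134 CPM and next highest in GABAergic interneurons at 75.5, 103 and 107 CPM. Fibroblasts led for Sema3a at 138, 143 and 253 CPM. Choroid plexus cells, counted in P14 WT only, held Sema3b at 68.4 CPM and Sema3f at 7.48 CPM, 7.24 and 6.05 above other cells (log2).

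Among the receptors for semaphorins, Plxnb3 marked oligodendrocytes at 228, 157 and 178 CPM, 7.26, 6.34 and 7.19 above other cells (log2). Plxnd1, the vascular receptor for Sema3e, marked endothelial cells at 176, 200.3 and 166 CPM. Plxna4 marked microglia at 240.2, 171 and 233 CPM, and stood at 229 CPM in ependymal cells of P14 WT. Plxna4os1 and Plxna4os3, antisense genes of Plxna4, were also highest or next highest in microglia or border macrophages. The strand setting is not stated, and whether reads of Plxna4 entered the counts of its antisense genes was not tested. Nrp1, co-receptor for class 3 semaphorins and for VEGF, was at 769, 735 and 1084 CPM in border macrophages and at 432, 438 and 400.1 CPM in endothelial cells. Nrp2 was at 135, 132 and 141 CPM in border macrophages. Plxna2 was high in several classes: endothelial cells led in P14 WT at 266 CPM, the granule lineage in P14 cKO at 346 CPM and fibroblasts in P10 cKO at 294 CPM.

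Among the Eph receptors, which signal between touching cells, Epha3 and Ephb2 led in the granule lineage, Epha3 at 130, 228 and 139 CPM and Ephb2 at 219, 184 and 301 CPM. Efna5, a ligand of EphA receptors, led there too at 142, 129 and 164 CPM. Epha8 was highest in GABAergic interneurons at 25.8, 32.7 and 16.1 CPM and next highest in fibroblasts at 21.2, 18.8 and 4.28 CPM. Epha5 marked oligodendrocyte precursors at 138, 158 and 108 CPM. Oligodendrocytes led for Ephb1 at 733, 578 and 846 CPM, for Epha4 at 131, 118 and 140.1 CPM and for the ligand Efnb3 at 177, 318 and 237 CPM. Epha4 was also more than 2-fold above other cells in astroglia, at 96.1, 114 and 117 CPM. Its intervals in astroglia and oligodendrocytes overlapped in both cKO libraries. Efnb1 led in fibroblasts at 94.9, 75.7 and 66.3 CPM, and Efnb2 at 69.4, 58.2 and 65.6 CPM, where the interval overlapped that of the next class in all 3 libraries. Efna1 and Ephb4 marked endothelial cells, Efna1 at 75.9, 80.9 and 60.4 CPM and Ephb4 at 38.7, 41.1 and 56.1 CPM.

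Within the granule lineage Dcc and Ntn1 were lower in mature than in newborn neurons and Unc5c was higher. The rise of Unc5c was less than 2-fold in both cKO libraries. Before that, Dcc was higher in newborn neurons than in cycling progenitors in each library, as Unc5c was. Stages were cycling progenitors (1836, 474 and 1223 cells), other progenitors (471, 174 and 283), newborn neurons (2413, 545 and 833), intermediate neurons (4072, 1713 and 1790) and mature neurons (31, 187 and 49), set by cell cycle genes, Atoh1, Nhlh1 with Cntn2, Grin2b over Nhlh1, and at least 2 of 6 late markers such as Gabra6. Granule lineage cells that met none of these gates were left unstaged. They held Dcc at 7502, 9992 and 11287 CPM and Slit3 at 7.30, 20.0 and 30.1 CPM. In P14 WT, Dcc was at 4616 CPM in cycling progenitors, 7816 in other progenitors, 6949 in newborn, 3150.4 in intermediate and 185 in mature neurons. In P14 cKO it was at 4785, 7776, 7544, 1663 and 96.1 CPM, and in P10 cKO at 4494, 7385, 6526, 2905 and 412 CPM, where 80 of the 121 UMIs of mature neurons came from 1 cell. The ratio of mature over newborn was -5.21, -6.29 and -3.98 (log2). Ntn1 went from 189 CPM in cycling progenitors through 174, 88.2 and 32.8 to 0 UMIs in mature neurons of P14 WT. It went from 182 through 192, 110.3 and 22.4 to 1.52 CPM in P14 cKO and from 296.5 through 367, 193 and 54.2 to 10.2 CPM in P10 cKO, with 3 UMIs in the mature cells of each cKO library. Against a floor of 3 UMIs, Ntn1 was at least 5.25-fold lower in mature than in newborn neurons of P14 WT. Unc5c stood at 655, 744, 1264, 1933 and 2527 CPM from cycling to mature in P14 WT, with 687, 938, 1255, 2292 and 2364 CPM in P14 cKO and 823, 851, 1305, 1994 and 2263 CPM in P10 cKO. Levels of Dcc and of Unc5c at neighbouring stages had intervals that did not overlap in P14 WT. Unc5d was at 229, 214 and 250 CPM in newborn, 444, 484 and 615 CPM in intermediate and 510, 345 and 248 CPM in mature neurons.

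**Figure D2:**
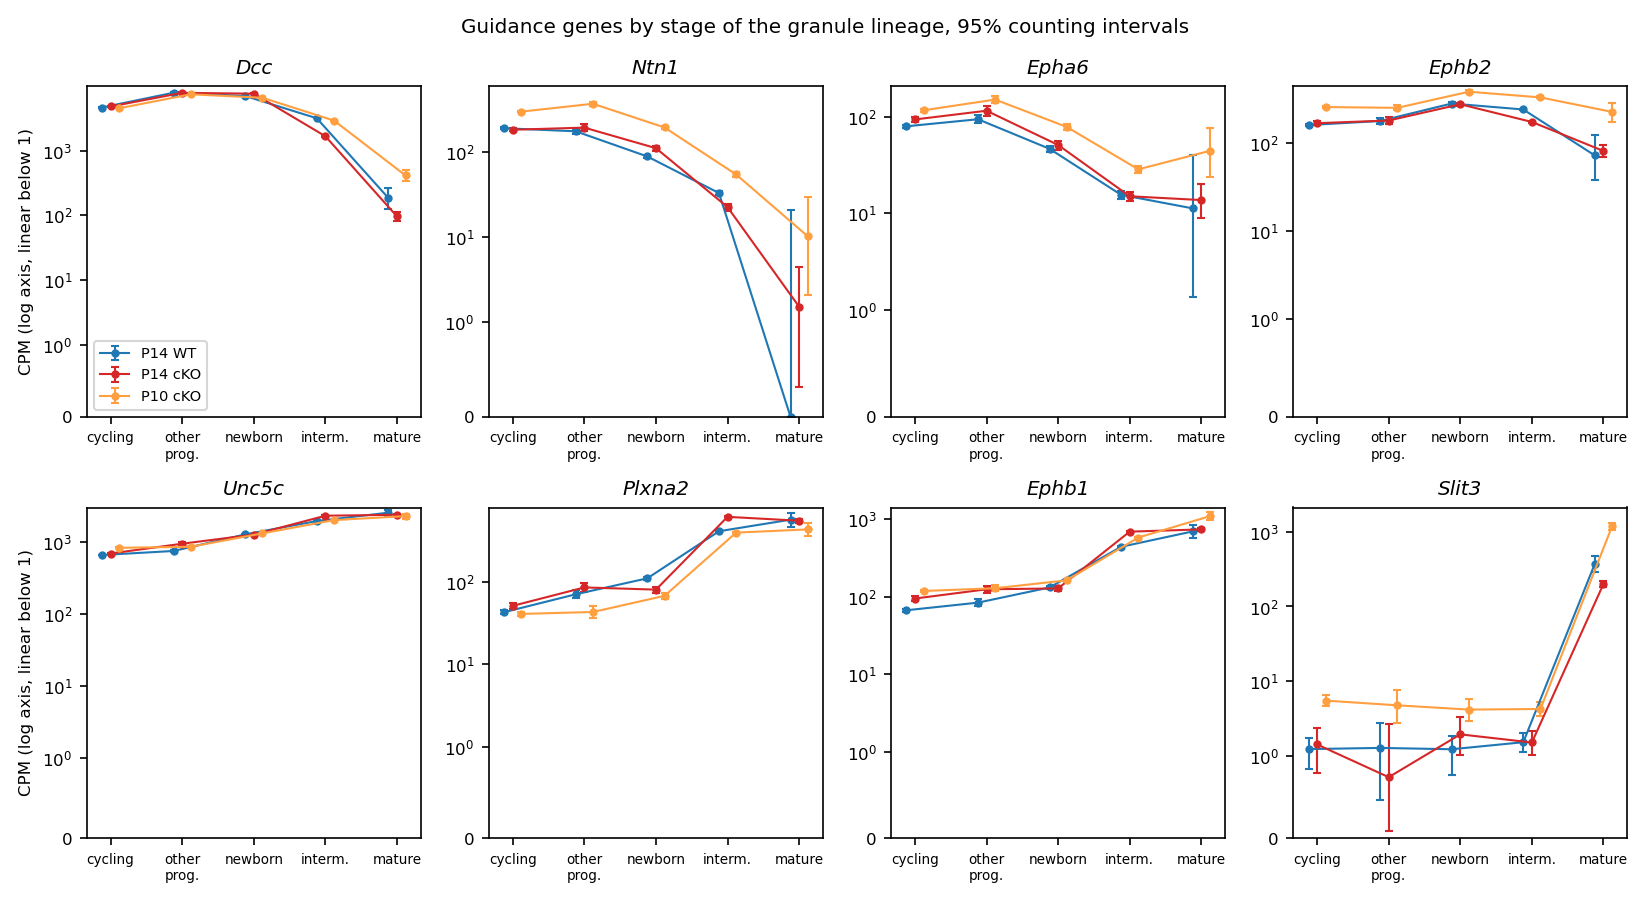
Level in CPM (log axis, linear below 1) of 8 guidance genes at 5 stages of the granule lineage in P14 WT, P14 cKO and P10 cKO, with exact 95% counting intervals; lines join the stages of a library. Dcc, Ntn1 and Epha6 are lower in intermediate than in newborn neurons in each library, Plxna2 and Ephb1 are higher, and Slit3 is at 375, 200.4 and 1191 CPM in mature neurons and under 6 CPM at the other stages shown. Unstaged granule lineage cells are not shown.

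Sema6a and its receptor Plxna2 were both higher in intermediate than in newborn neurons. Sema6a stood at 347, 514, 855, 1163 and 661 CPM from cycling to mature in P14 WT, at 410.1, 604, 939.7, 1146 and 635.5 CPM in P14 cKO and at 542, 702, 1088, 1485 and 582 CPM in P10 cKO, so that its highest stage was the intermediate one in each library. Plxna2 stood at 43.1, 71.0, 111, 414 and 571 CPM in P14 WT, at 51.4, 86.0, 80.9, 619 and 555 CPM in P14 cKO and at 41.0, 43.3, 68.0, 398 and 436 CPM in P10 cKO. The ratio of intermediate over newborn for Plxna2 was 1.90, 2.93 and 2.55 (log2). Sema3d was at 41.3, 57.3 and 36.8 CPM in intermediate neurons, against 14.5, 11.98 and 7.15 CPM in newborn ones. Nrp2 was at 1.27, 2.81 and 1.90 CPM in newborn and 3.12, 6.83 and 4.42 CPM in intermediate neurons. In mature neurons it was at 5.60, 21.3 and 27.2 CPM, on 1, 42 and 8 UMIs. Plxnb2 was highest in cycling progenitors at 125, 118.5 and 117 CPM. Nrp1, Plxna4 and Epha4 did not exceed 10 CPM at these 5 stages in P14 WT and P14 cKO, and Plxna4 reached 81.7 CPM in the mature cells of P10 cKO.

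Eph receptors moved in both directions. Ephb1 stood at 66.6, 83.5, 131, 437 and 689 CPM from cycling to mature in P14 WT, at 94.3, 124, 127, 684 and 732 CPM in P14 cKO and at 118, 128, 162, 575 and 1082 CPM in P10 cKO. Ephb2, its close relative, stood at 162, 179.6, 284, 243 and 72.8 CPM in P14 WT, with its highest stage among newborn neurons, and at 278 and 387 CPM in newborn and 82.0 and 228 CPM in mature neurons of P14 cKO and P10 cKO. Epha6 was at 46.5, 50.9 and 78.3 CPM in newborn and 15.5, 15.0 and 28.4 CPM in intermediate neurons. Epha3 was at 431, 545 and 459 CPM in mature neurons, against 114, 77.1 and 132 CPM in newborn ones. Ephb4, low throughout, was at 7.54, 7.41 and 8.87 CPM in cycling progenitors and at 0.335, 0.449 and 0.988 CPM in intermediate neurons. Efnb2 and Efnb3, their ligands, differed by less than 2-fold between newborn and intermediate neurons, Efnb2 at 13.02, 14.8 and 14.7 against 19.0, 21.4 and 21.1 CPM and Efnb3 at 6.90, 6.36 and 6.26 against 6.97, 8.03 and 5.98 CPM.

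Robo receptors and slits also differed by stage. Robo2 was at 355, 310.0 and 366 CPM in newborn, at 795, 1089.6 and 684 CPM in intermediate and at 1288.5, 983 and 412 CPM in mature neurons. Robo1 was at 142, 124.5 and 121 CPM in cycling progenitors, at 45.3, 45.5 and 56.9 CPM in intermediate and at 72.8, 69.3 and 245 CPM in mature neurons. Slit2 was at 40.1, 49.2 and 39.1 CPM in newborn neurons, with 0, 13 and 0 UMIs in mature ones, at least 2.39-fold lower in P14 WT and at least 3.83-fold lower in P10 cKO.

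Slit3 was the guidance gene with the largest step at the end of the lineage. It was at 1.21, 1.92 and 4.13 CPM in newborn and 1.51, 1.496 and 4.21 CPM in intermediate neurons, and at 375, 200.4 and 1191 CPM in mature ones, 8.25, 6.65 and 8.15 higher than in newborn neurons (log2). A Slit3 UMI was found in 12 of 31, 75 of 187 and 41 of 49 mature neurons, in 17 of 2413, 7 of 545 and 20 of 833 newborn neurons, and in 2 of 643, 4 of 362 and 2 of 168 microglia, with median depths of 5344, 10530 and 5230 UMIs for mature and 7149, 12096 and 10048 for newborn neurons. Split after these values were seen by a UMI of Gabra6, the granule neuron GABA receptor subunit, mature neurons with Gabra6 held Slit3 at 704, 389 and 1428 CPM and those without it at 0, 30.8 and 813 CPM. Cells in the mature gate also held other RNA: the 10 astroglia markers summed to 1014, 801 and 1266 CPM in them and the 5 markers of unipolar brush cells to 969, 950 and 1065 CPM. In P10 cKO they also held Sema5b at 109 CPM, a gene that marks oligodendrocyte precursors. The part of these other cell types in the mature values was not tested.

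Past 2-fold in each of the 3 libraries, 11 of 50 genes with enough UMIs were higher in mature than in newborn neurons (7.31% of all genes), and 5 were lower (5.79%). The higher genes were Epha3, Epha5, Ephb1, Nrp2, Ntng1, Plxna2, Sema3a, Sema3d, Sema4d, Slit3 and Unc5b, and the lower ones Dcc, Ntn1, Plxnb1, Plxnc1 and Slit2. Nrp2 had 1 UMI in the mature neurons of P14 WT (5.60 CPM), fewer than the floor of 3 UMIs, so its place there rests on 1 UMI. Plxnb1 had 0 UMIs in the mature neurons of P14 WT and P10 cKO, and its newborn level in P14 WT, 10.4 CPM, lies under the floor of 3 UMIs in so few cells, so no fold is given. From newborn to intermediate neurons, 5 of 59 were higher in each library (2.16% of all genes), Ephb1, Nrp2, Plxna2, Sema3d and Sema4d, and 6 were lower (1.42%), Dcc, Epha6, Ephb4, Ntn1, Ntng2 and Sema3g. In single libraries the shares of all genes past 2-fold were larger. From newborn to mature they were 21.2% higher and 14.4% lower in P14 WT, 13.2% and 13.7% in P14 cKO, and 15.5% and 26.1% in P10 cKO. From newborn to intermediate they were 5.27% and 2.84%, 8.31% and 7.54%, and 4.6% and 4.87%. The stages depend on depth, since a deep cell shows more markers. With gates set on cells thinned to 2000 UMIs, 2 genes (Plxna2 and Sema3d) were higher and 1 (Ntng2) was lower, of 54 (share of all genes not given). The ratios were then smaller in the same direction, at -0.89, -1.72 and -0.80 for Dcc, -1.08, -1.79 and -0.91 for Ntn1, and 1.13, 1.81 and 0.94 for Ephb1 (log2).

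Between the genotypes at P14, most pairs of a guidance gene and a class differed by less than 2-fold. Over 14 classes and stages there were 623 pairs of a gene and a class with at least 20 UMIs, with a median log2 ratio of 0.03. Of these, 30 were past 2-fold higher in P14 cKO (3.52% of all gene and class pairs were) and 47 past 2-fold lower (2.79%), and in 22 and 37 of them the interval lay on 1 side of 0. In each case the ratio compares 1 library with 1 library.

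**Figure D3:**
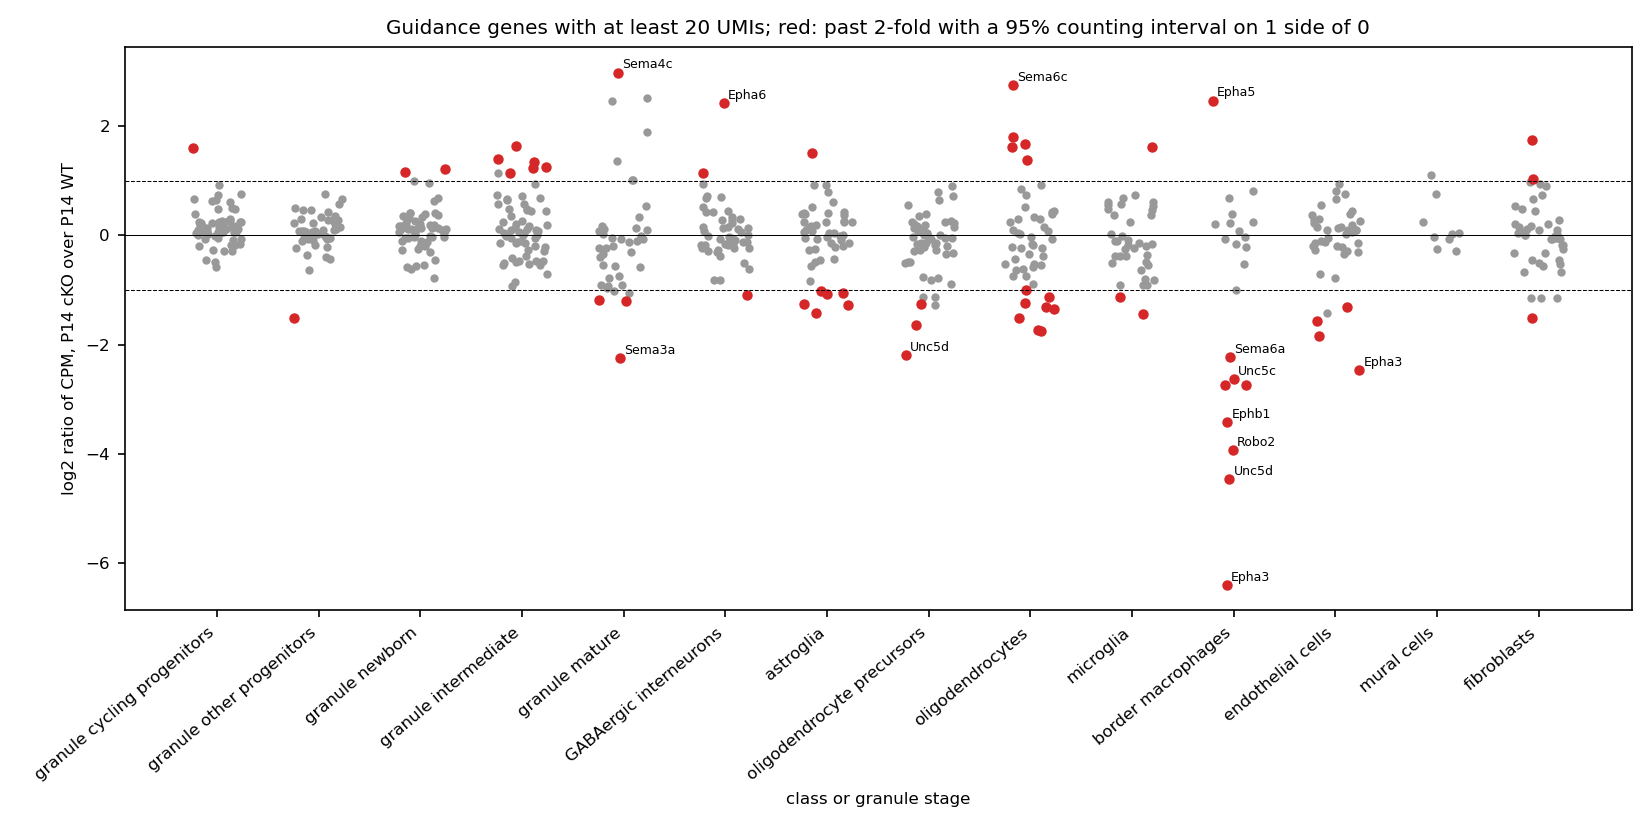
Log2 ratio of CPM, P14 cKO over P14 WT, for each guidance gene with at least 20 UMIs in the 2 libraries together (points, 0.5 UMI added, spread sideways for legibility), by class or granule stage; red points are past 2-fold (dashed lines) with a 95% counting interval on 1 side of 0, and names mark most of those past 4-fold. Most points lie between the dashed lines, and the lowest are in border macrophages, down to -6.39 for Epha3.

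Progenitors and newborn granule neurons differed little between the genotypes. In cycling progenitors 1 of 60 genes was higher (4.01% of all genes) and 0 lower (1.27%), in other progenitors 0 of 48 were higher (2.36%) and 1 lower (1.16%), and in newborn neurons 2 of 57 were higher (3.12%) and 0 lower (1.2%). Epha4, an Eph receptor that binds ephrins of both classes, was the higher gene of cycling progenitors, at 1.15 CPM in P14 WT and 3.47 in P14 cKO (log2 1.60, 0.87 to 2.34), in 28 of 1836 and 25 of 474 cells. Efna1 was at 6.75 and 2.22 CPM in other progenitors (log2 -1.51, -3.16 to -0.33), on 32 and 6 UMIs. Unc5a and Nrp2 were the higher genes of newborn neurons, on 21 and 18 UMIs and on 23 and 19 UMIs. Dcc, Unc5c, Robo2, Sema6a and Ephb2 all lay within 2-fold in these 3 stages.

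In intermediate granule neurons 7 of 64 genes were higher in P14 cKO (5.27% of all genes) and 0 lower (2.79%). Epha5 went from 10.6 to 25.3 CPM (log2 1.26, 1.05 to 1.47), with a UMI in 5.13% of 4072 and 13.9% of 1713 cells at median depths of 7035 and 11830 UMIs. Plxnd1 went from 1.01 to 3.14 CPM (log2 1.63, 0.99 to 2.32) and Nrp2 from 3.12 to 6.83 CPM (log2 1.13, 0.74 to 1.53). Dcc stayed short of 2-fold, at 3150.4 CPM in P14 WT and 1663 in P14 cKO (log2 -0.92). Other genes differed between these cells too: Nhlh1, a newborn marker, was at 141 and 106 CPM, and Calb2, which encodes calretinin, at 10.7 and 76.4 CPM. In a split added after seeing the data, Dcc differed by -0.54 in intermediate cells with an Nhlh1 UMI and by -2.05 in those without (log2). Whether the stage of these cells accounts for the differences was not tested.

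Mature granule neurons numbered 31 in P14 WT and 187 in P14 cKO, and 7 of 41 genes were higher (8.23% of all genes) and 5 lower (5.96%). The interval lay above 0 for 1 of the 7 and below 0 for 3 of the 5, and Ntng2, Efnb2 and Efnb3, with 0 UMIs in P14 WT, were at 15.2, 10.1 and 15.7 CPM in P14 cKO, under the floor of 3 UMIs in P14 WT. Sema3a was at 134.5 CPM in P14 WT and 28.8 in P14 cKO (log2 -2.24, -2.93 to -1.47), with 9 of the 24 UMIs of P14 WT in 1 cell. Sema6d was at 252 and 112 CPM (log2 -1.19, -1.64 to -0.68), and Efna5 at 95.2 and 42.5 CPM (log2 -1.20, -1.93 to -0.32). Sema4c had 0 UMIs in the mature neurons of P14 WT and was at 21.8 CPM in those of P14 cKO, at least 1.29-fold higher against the floor of 3 UMIs.

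In GABAergic interneurons 2 of 49 genes were higher (2.58% of all genes) and 1 lower (0.874%). Epha6 was at 5.39 CPM in P14 WT and 30.4 in P14 cKO (log2 2.42, 1.52 to 3.66), with a UMI in 6 of 261 and 32 of 320 interneurons and in 5 of 643 and 5 of 362 microglia, at the depths given above. At most 19 of its 118 UMIs in P14 cKO came from 1 cell, and in P10 cKO it was at 10.2 CPM in 19 of 324 cells. Epha6 is a gene of early granule cells in these data, and the 8 granule lineage markers summed to 1584 and 1673 CPM in the interneurons of P14 WT and P14 cKO. The part of granule cell RNA in the Epha6 ratio was not tested. Unc5d was at 4.20 and 9.80 CPM (log2 1.14, 0.04 to 2.63), with 15 of the 38 UMIs of P14 cKO in 1 cell, and turned to -1.04 where called doublets were kept. Epha10 was at 13.2 and 6.19 CPM (log2 -1.09, -1.99 to -0.19). Unc5c, Dcc, Ntn1 and Slit2 lay within 2-fold in interneurons.

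Astroglia had 1 of 48 genes higher (2.73% of all genes) and 6 lower (2.73%). Robo2 was at 104 CPM in P14 WT and 38.9 in P14 cKO (log2 -1.41, -1.77 to -1.09), in 201 of 657 and 29 of 177 cells. Sema4d was at 100.1 and 49.4 CPM (log2 -1.01, -1.33 to -0.72). Dcc was at 127 and 53.2 CPM (log2 -1.25), but 107 of the 828 UMIs of P14 WT came from 1 cell, and the ratio turned to 0.16 with gates on thinned cells. Plxnd1 was the higher gene, on 12 and 11 UMIs (log2 1.51, 0.18 to 2.81). The kinds of astroglia captured also differed: the Bergmann glia genes Gdf10, Sept4 and Hopx were at 791, 882 and 998 CPM in P14 WT and at 423, 454 and 643 CPM in P14 cKO, and Gfap, the filament protein of astrocytes, at 371 and 918 CPM. The part of this makeup in the ratios was not tested.

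The oligodendrocyte lineage differed in both stages. In oligodendrocyte precursors 0 of 53 genes were higher (1.35% of all genes) and 6 lower (1.73%). Unc5d was at 35.6 and 7.62 CPM (log2 -2.19, -3.03 to -1.497), Ntng2 at 12.3 and 3.81 CPM (log2 -1.63, -2.93 to -0.62) and Epha3 at 8.42 and 3.39 CPM (log2 -1.25, -2.67 to -0.13, which turned to 0.19 with gates on thinned cells). Unc5d and Epha3 are high in granule cells, 60 of the 110 Unc5d UMIs of P14 WT came from 1 cell, and granule lineage markers summed to 316 CPM in the precursors of P14 WT and 175 in those of P14 cKO. The part of granule cell RNA in the ratios of the precursors was not tested. In oligodendrocytes 5 of 48 were higher (5.3%) and 8 lower (4.01%). Ntng2, a netrin-G that stays on the membrane, was at 7.75 and 24.9 CPM (log2 1.66, 1.18 to 2.22) and Epha5 at 4.19 and 14.9 CPM (log2 1.80, 1.14 to 2.58). Nrp1 was at 10.9 and 3.26 CPM (log2 -1.73, -2.44 to -1.07), Ephb2 at 13.4 and 5.43 CPM (log2 -1.30) and Efna5 at 4.82 and 1.41 CPM (log2 -1.75). Sema6c had 2 UMIs in P14 WT and 32 in P14 cKO (log2 2.75, 1.08 to 6.16). Oligodendrocytes had a median of 24652 UMIs in the 198 cells of P14 WT and 1822 in the 447 of P14 cKO. They also differed in stage: Enpp6 and Bcas1, genes of newly formed oligodendrocytes, were at 1489 and 1737 CPM in P14 WT and at 740.4 and 957 CPM in P14 cKO, while the myelin genes Mog and Mobp were at 1371 and 3170 CPM and at 2226 and 5471 CPM. The part of depth and stage in these ratios was not tested.

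In macrophages and vessel cells several of the lower genes are high in granule cells. Microglia had 1 of 39 higher (2.59% of all genes) and 2 lower (3.12%). The higher one was Epha3 at 1.86 and 5.90 CPM (log2 1.61), with 18 of the 34 UMIs of P14 cKO in 1 cell, and the lower ones were Ntn4 at 5.03 and 2.25 CPM (log2 -1.13, -2.24 to -0.15) and Efna4 on 16 and 6 UMIs. Border macrophages had 1 of 22 higher (4.54%) and 9 lower (5.06%), in 56 and 132 cells. There Epha3 went from 95.8 to 0.770 CPM (log2 -6.39) with 33 of the 42 UMIs of P14 WT in 1 cell, and Unc5d and Robo2, each at 75.3 CPM in P14 WT, were at 3.08 and 4.62 CPM in P14 cKO. Granule lineage markers summed to 310.2 CPM in the border macrophages of P14 WT and 119 in those of P14 cKO, and Neurod1, the granule neuron transcription factor, was at 93.5 and 39.3 CPM. Nrp1 and Nrp2 lay within 2-fold there. Endothelial cells had 0 of 41 higher (1.83%) and 5 lower (4.93%), with Plxnb2 at 15.5 and 4.05 CPM (log2 -1.83, -3.44 to -0.74), Epha3 on 23 and 1 UMIs (log2 -2.47) and Ntn1 at 12.4 and 4.72 CPM (log2 -1.31, -2.78 to -0.25). Robo4, Plxnd1, Sema3c and Efna1 lay within 2-fold there. Fibroblasts had 2 of 44 higher (2.18%) and 4 lower (3.13%), with Sema3c at 5.83 and 20.1 CPM (log2 1.74, 0.75 to 2.92), 14 of its 31 UMIs in P14 cKO in 1 cell, Ephb1 at 8.48 and 17.5 CPM (log2 1.02, 0.10 to 2.03) and Dcc at 59.4 and 20.7 CPM (log2 -1.504), 33 of its 112 UMIs in P14 WT in 1 cell. Mural cells had 1 of 9 higher (4.24%), Ntn4, chosen after its value was seen and with an interval that spans 0, and 0 lower (3.76%). In P14 WT and P14 cKO, Neurod1 was at 39.9 and 31.6 CPM in microglia and 38.4 and 43.8 in endothelial cells. It was at 36.0 and 22.6 CPM in fibroblasts and at 53.2 and 41.5 CPM in mural cells. Dcc was at 56.5 and 95.8 CPM in endothelial cells (log2 0.76, 0.45 to 1.07). The part of granule cell RNA in the ratios of these classes was not tested.

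Other genes of the pathway were counted from lists chosen apart from the members. Of 20 other guidance receptors, ligands and adhesion partners, 14 of 205 gene and class pairs were higher in P14 cKO and 8 lower, where 3.52% and 2.79% of the pairs of all genes were. In intermediate granule neurons Dscam, another netrin receptor, was at 27.3 CPM in P14 WT and 105 in P14 cKO (log2 1.95, 1.83 to 2.07), and Chl1, an adhesion molecule that partners neuropilins, at 3.89 and 12.9 CPM (log2 1.72, 1.40 to 2.06). Chl1 was also higher in cycling progenitors, at 2.88 and 14.4 CPM (log2 2.31). Of 40 cytoplasmic effectors of guidance receptors, 18 of 474 pairs were higher and 12 lower. Chn2, a Rac GTPase-activating protein, was at 3.52 and 37.1 CPM in intermediate neurons (log2 3.39, 3.10 to 3.71), and Ablim1, an actin-binding protein of the netrin pathway, at 7.51 and 60.7 CPM (log2 3.01, 2.81 to 3.23). In oligodendrocytes Fyn, a kinase downstream of Dcc and of integrins, was at 1583 and 676 CPM (log2 -1.23), and Pak1, a Rac effector kinase, at 129 and 380.3 CPM (log2 1.56). The medians of the list of other receptors and ligands lay between -1.25 in border macrophages and 0.23 in mature neurons, and those of the effectors between -0.19 and 0.12.

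Between the cKO libraries of P14 and P10, age, sex and library cannot be told apart. Over 13 classes and stages, 21 of 585 gene and class pairs were past 2-fold higher at P14 (4.14% of all pairs) and 59 lower (4.15%), with intervals on 1 side of 0 in 20 and 50 and a median log2 ratio of -0.15. Higher and lower genes numbered 1 and 2 of 61 in cycling progenitors (3.18% and 2.76% of all genes), 0 and 1 of 48 in other progenitors (2.08% and 2.88%), 1 and 2 of 57 in newborn neurons (2.82% and 2.49%), 4 and 5 of 64 in intermediate neurons (6.21% and 3.38%) and 3 and 12 of 44 in mature neurons (14.7% and 8.56%). They numbered 6 and 0 of 50 in GABAergic interneurons (3.5% and 1.8%), 1 and 11 of 37 in astroglia (2.97% and 4.34%), 1 and 5 of 50 in oligodendrocyte precursors (2.3% and 2.36%) and 0 and 2 of 46 in oligodendrocytes (4.29% and 2.72%). Microglia had 1 and 6 of 34 (3.62% and 8.03%), border macrophages 1 and 4 of 20 (2.45% and 6.73%), endothelial cells 0 and 4 of 35 (2.06% and 5.39%) and fibroblasts 2 and 5 of 39 (4.73% and 5.15%). In intermediate granule neurons Ntn1 was at 54.2 CPM in P10 cKO and 22.4 in P14 cKO (log2 -1.27, -1.44 to -1.11), Ntng2 at 7.43 and 2.29 CPM (log2 -1.69), Slit3 at 4.21 and 1.496 CPM (log2 -1.48) and Unc5a at 1.04 and 4.24 CPM (log2 interval 1.31 to 2.81). In cycling progenitors Sema4b was at 17.8 and 8.82 CPM (log2 -1.01, -1.35 to -0.69) and Slit3 at 5.46 and 1.41 CPM (log2 -1.91). In mature neurons Slit3 was at 1191 and 200.4 CPM (log2 -2.57, -2.78 to -2.36), Dcc at 412 and 96.1 CPM (log2 -2.10) and Robo2 at 412 and 983 CPM (log2 1.25, 0.99 to 1.53). Most Dcc UMIs in the mature neurons of P10 cKO came from 1 cell, as given above. Epha8 and Epha6 were higher at P14 in GABAergic interneurons, Epha8 at 16.1 and 32.7 CPM (log2 1.01, 0.54 to 1.53) and Epha6 at 10.2 and 30.4 CPM (log2 1.56, 1.00 to 2.20). Dcc was lower at P14 in astroglia, fibroblasts, microglia, border macrophages and endothelial cells, from -3.37 in astroglia, where 250 of the 695 UMIs of P10 cKO came from 1 cell, to -1.16 in endothelial cells (log2).

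P10 WT differed from all other libraries in the guidance genes with long introns, and these genes are unusually long. Of the 74, 33 (44.6%) had at least 100 kb of introns, against 12.4% of 19248 genes with at least 50 UMIs in gated cells. Dcc, with 1084 kb, was at 150.1 CPM in the cycling progenitors of P10 WT, against 4494 CPM in P10 cKO. In cycling progenitors 30 of 64 guidance genes were past 2-fold higher in P10 cKO (24.7% of all genes) and 1 lower (5.13%). The median log2 ratio of P10 cKO over P10 WT was 2.13 for the 32 guidance genes with at least 100 kb of introns, against 1.82 for all genes of that length. It was -0.40 for the 14 with under 10 kb, against -0.38 for all such genes. P14 WT over P10 WT gave 1.68 and -0.34 for the same length classes, so WT at the other age differed from P10 WT in the same way, while P14 cKO over P14 WT gave 0.12 and 0.23. The matrices of P10 WT, P10 cKO and the P14 pair were written by different versions of Cell Ranger (5.0.0, 7.0.1 and 7.1.0), and genotype at P10 cannot be told apart from that step.

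**Figure D4:**
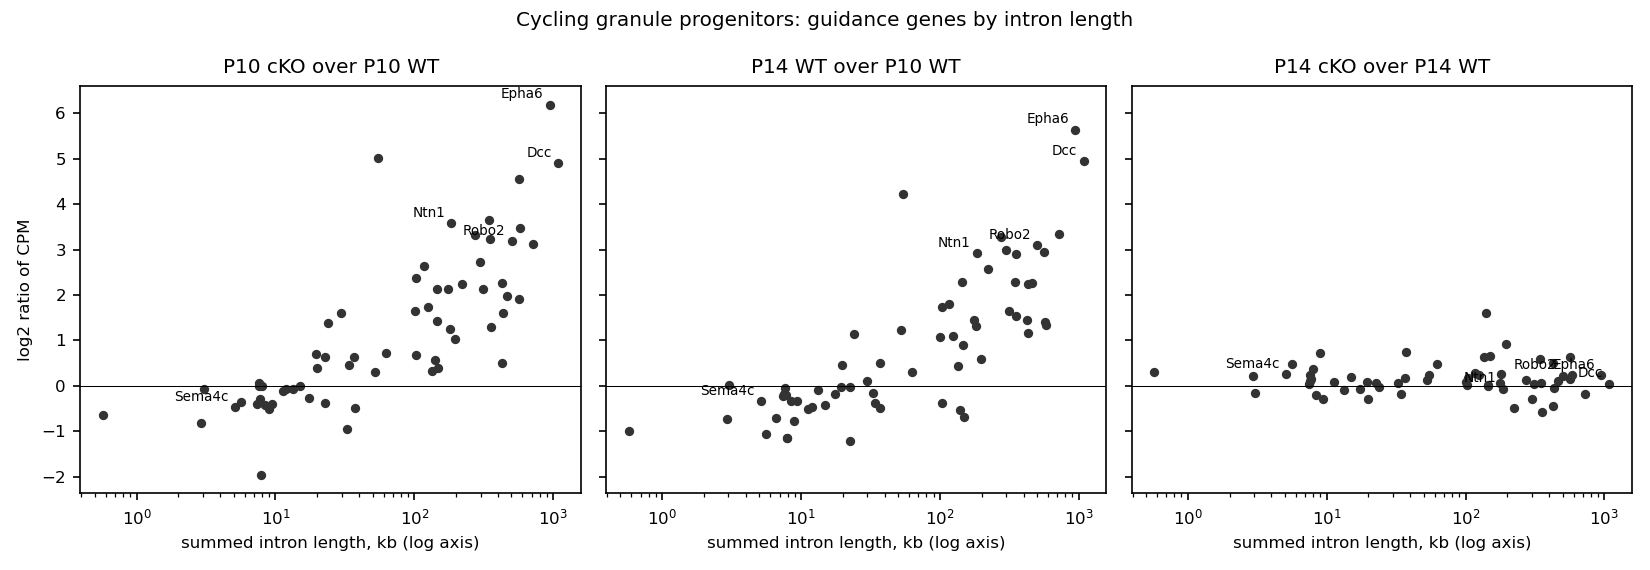
Log2 ratio of CPM in cycling granule progenitors against the summed intron length of each guidance gene (kb, log axis) for P10 cKO over P10 WT, P14 WT over P10 WT and P14 cKO over P14 WT; each point is 1 gene and 5 are named. In both panels against P10 WT the genes with over 100 kb of introns lie mostly above 0, Epha6 and Dcc highest, whereas the P14 panel shows no such slope.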

How the data were processed

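The authors deposited raw counts, UMIs per gene and cell barcode, for 4 libraries. Per the file headers the P14 matrices come from Cell Ranger 7.1.0, that of P10 cKO from 7.0.1 and that of P10 WT from 5.0.0. Seurat 4.1.3, mm10 and Cell Ranger 3.0.2 stand in the submitters' processing notes. Whether introns or strand were counted is not given in the sources used here.

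Cells with at least 500 genes and at most 20% mitochondrial UMIs were kept. Scrublet (in Scanpy 1.11.5) left 2 libraries with 0 doublets at its own threshold, so a common score of 0.206 was used, which removed 3.68% of P14 WT, 2.87% of P14 cKO, 3.31% of P10 cKO and 4.17% of P10 WT cells. A cell went to the class of which it showed the highest share of markers, with at least 3 markers and a lead of 0.2 in share. The gates were set after the data had been seen. In P14 WT and P14 cKO, 16 of the 31 and 89 of the 187 cells of the mature gate were at its minimum of 2 markers.

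UMIs were summed per class and library and divided by the class total. Ratios had 0.5 UMI added and needed at least 20 UMIs in the 2 sums, and intervals were exact Poisson or exact conditional binomial. UMIs are counted molecules, so the number of UMIs behind a sum limits its precision. The ratio step was tested on simulated data. Alternatives included TMM factors from edgeR 4.0.16 (R 4.3.3), medians of ratios and cells thinned to 2000 UMIs. Thinning left out 1077 P14 WT, 719 P14 cKO, 251 P10 cKO and 1589 P10 WT cells. Intron lengths and gene IDs followed GRCm38. Python 3.11.15, NumPy 2.4.6, SciPy 1.17.1, pandas 2.3.3 and matplotlib 3.10.9 were used.

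The genes and lists were chosen with earlier results of these data known. Genes are named by a rule: up to 3 per class over other cells, up to 3 per stage, up to 6 in each direction between mature and newborn neurons, up to 3 in each direction per class between the P14 libraries, and a fixed set that includes Dcc, Ntn1, Unc5c, Slit2, Slit3, Sema6a and Plxna2. Other genes named were chosen after their values were seen.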

Additional observations from a re-analysis of the deposited data

Results flagged for a closer look

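Between P14 cKO and P14 WT, 8 guidance genes were past 2-fold higher in 1 class and past 2-fold lower in another, with intervals on either side of 0. They are 8 of the 67 with enough UMIs in at least 2 classes or stages, against 2.87% of 15970 such genes in all, and the guidance genes were not compared with genes of like level. The difference between the classes was not tested, and each value compares 1 library with 1 library. As log2 ratios, Efna1 was at 1.37 in oligodendrocytes and -1.51 in other granule progenitors, and Epha6 at 2.42 in GABAergic interneurons and -1.51 in oligodendrocytes. Ephb1 was at 1.02 in fibroblasts and -3.41 in border macrophages, and Ntng2 at 1.66 in oligodendrocytes and -1.63 in oligodendrocyte precursors. Plxnb2 was at 1.61 in oligodendrocytes and -1.83 in endothelial cells, and Sema5b at 1.40 in intermediate granule neurons and -1.08 in astroglia. Unc5d was at 1.14 in GABAergic interneurons, -2.19 in oligodendrocyte precursors and -4.46 in border macrophages. Epha3 was at 1.61 in microglia and at -6.39, -2.47, -1.25 and -1.24 in border macrophages, endothelial cells, oligodendrocyte precursors and oligodendrocytes. With gates on thinned cells Plxnb2 in oligodendrocytes turned to -0.067, and Epha3 to 0.19 in oligodendrocyte precursors and 0.12 in oligodendrocytes. With doublets kept, Unc5d in GABAergic interneurons turned to -1.04. Epha3 and Unc5d rest on few cells outside the granule lineage, as given above.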

How the results depend on the processing

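No paired analysis was possible because each group is 1 library with no replicate number. Of 78 ratios of single genes, 67 could be computed with gates on thinned cells, of which 15 moved beyond their interval and 5 reversed: Dcc in astroglia to 0.16, Epha3 in oligodendrocyte precursors to 0.19 and in oligodendrocytes to 0.12, Plxnb2 in oligodendrocytes to -0.067, and Ntng2 in other progenitors (P14 over P10 cKO) to 1.13. With doublets kept, Unc5d in GABAergic interneurons reversed to -1.04. No other ratio reversed under the alternatives run, with 35 computed on thinned counts, of which 15 moved. With intermediate neurons split by Nhlh1 UMIs, 15 of 25 ratios moved in cells with such UMIs and 14 of 24 in cells without. In all, 46 alternative values had under 20 UMIs and 15 a class under 20 cells, and were left out. For P14 cKO over P14 WT, thinned counts gave 13 higher and 19 lower of 330 pairs, a minimum of 50 UMIs 13 and 21 of 466, no minimum 99 and 129 of 935, and a 1.5-fold rule 80 and 84 of 623. For P14 over P10 cKO these were 13 and 35 of 296, 12 and 39 of 443, 80 and 147 of 879, and 62 and 145 of 585, and gates on thinned cells gave 34 lower of 520. From newborn to intermediate neurons, gates on thinned cells left 2 higher and 1 lower of 54. The shares of all genes under these settings are not given, so these counts are not set against other genes. The cause of these shifts was not tested beyond the fewer cells, UMIs or genes that the settings keep. Other scalings moved the median of all genes by over 0.1 (log2) only for P14 over P10 cKO, by up to 0.25 in microglia and 0.24 in mature neurons. Mural cells and mature neurons had too few cells for some alternatives, which were not run: for mural cells thinned counts, gates on thinned cells and at least 1000 genes, and for mature neurons gates on thinned cells and, between the P14 libraries and from newborn to mature, stricter gates. Counted over gated cells only, 73 genes reach 50 UMIs.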
